A study of Mus musculus with 2 samples.

Results

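The 9 genes Tph1, Tph2, Th, Ddc, Maoa, Maob, Slc6a4, Slc6a2 and Slc18a2 encode the enzymes and transporters that make, degrade and carry serotonin, dopamine and noradrenaline. They were chosen by name for these roles, and were represented by 11 probes among the 55681 probes and 37069 gene names of a mouse Agilent array. Their transcripts were quantified in the prefrontal cortex (PFC) with 2 one-color arrays, 1 for pooled RNA of control mice (C group) and 1 for pooled RNA of mice under chronic mild stress (CMS group), and C and CMS below stand for these pools. All mice were males of the strain labelled C57Bl/6 N sea and carried no engineered allele in the labels, and they were 9 to 10 weeks old when the experiment began. The C group received ordinary care and lived in groups, whereas the CMS mice were caged alone and stressed for 4 weeks, so that stress and single housing cannot be told apart. The series text states that each pool held RNA of 7 mice, and the methods assign 10 mice per group to arrays and qRT-PCR. A single array per group left no spread between mice to set a difference against, so the groups were compared by values without a test.

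Serotonin is made from tryptophan by a tryptophan hydroxylase (Tph1 mainly outside the brain, Tph2 in neurons) and the decarboxylase Ddc, and dopamine from tyrosine by the tyrosine hydroxylase Th and the same decarboxylase. Slc18a2 loads the amines into vesicles, the plasma membrane transporters Slc6a4 (serotonin) and Slc6a2 (noradrenaline) return them to the axon, and the mitochondrial monoamine oxidases Maoa and Maob degrade them. The neurons that use these amines have their cell bodies in the brainstem and midbrain and send axons to the PFC, so that their transcripts need not be abundant in PFC tissue, while Th is also transcribed in some cortical neurons and Maob in astrocytes. In a tissue extract, fewer cells of a type and less RNA per cell cannot be told apart.

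The sequences just upstream of the synthesis genes are shown because these enzymes set how much amine a cell can make and because Tph1 and Ddc each start at more than 1 place. The RefSeq promoter table for GRCm38.p6 held 7 of the 9 genes, with 9 start sites. Maob and Slc6a2 were not among them. For each start the 100 bases before it were searched on both strands for TGACGTCA (the cyclic AMP response element), TGACG (its first 5 letters, so that every TGACGTCA is also counted here), TATAAA (the TATA box), CCAAT (the CCAAT box) and CAAAGTCCA (a site for Hnf4a). Matches are in capitals, and a match on the other strand appears as its reverse complement.
Th, chr7:142899996-142900095, minus strand: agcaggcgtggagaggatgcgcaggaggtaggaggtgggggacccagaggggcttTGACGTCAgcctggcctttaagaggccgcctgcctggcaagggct
Tph1, chr7:46667378-46667477, minus strand: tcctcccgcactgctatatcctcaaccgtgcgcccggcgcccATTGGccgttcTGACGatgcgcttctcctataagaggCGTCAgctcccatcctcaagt
Tph1, chr7:46672538-46672637, minus strand: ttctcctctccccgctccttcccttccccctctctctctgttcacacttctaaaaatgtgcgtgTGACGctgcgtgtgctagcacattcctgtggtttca
Tph2, chr10:115185023-115185122, minus strand: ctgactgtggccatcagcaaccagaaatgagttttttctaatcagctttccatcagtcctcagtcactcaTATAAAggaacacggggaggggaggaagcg
Ddc, chr11:11890409-11890508, minus strand: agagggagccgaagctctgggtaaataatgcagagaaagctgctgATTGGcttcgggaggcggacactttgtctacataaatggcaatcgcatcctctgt
Ddc, chr11:11898145-11898244, minus strand: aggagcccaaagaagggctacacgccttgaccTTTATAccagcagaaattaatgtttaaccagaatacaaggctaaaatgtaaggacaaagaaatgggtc
Counting the base before the start as -1, Th held TGACGTCA from -45, a motif found in 1.15% of the 32851 windows of this length in the table. The shorter TGACG, found in 10.5% of the windows, occurred at both Tph1 starts, once from -36 and at the other start at 2 places. Tph2 held TATAAA from -30 and one Ddc start held it from -68, against 5.56% of all windows. CCAAT, found in 18.9% of the windows, occurred from -58 at one Tph1 start and from -55 at one Ddc start. CAAAGTCCA, found in 0.17% of the windows, was in none of the 9 windows. These matches describe letters in the sequence and not binding.

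Of the 9 genes, 5 were well above background in C and 6 in CMS, and none of the 6 given a ratio differed by more than 2-fold in either direction. A signal here is the background-subtracted intensity of the scanner software, scaled so that each array averages 2500, and its error is the software's own error for that spot, since every probe of these genes had 1 spot. Well above background is the software's flag for a spot clearly brighter than the background that the software estimates. It need not follow the local background given below for single spots. The Tph1 spot exceeded its local background by 24 intensity units in C, without the flag, and by 23 in CMS, with it. A ratio was given to 6 genes, and 0 of them were more than 2-fold higher and 0 more than 2-fold lower in CMS. Of all 27114 gene names with a ratio, 1.99% were more than 2-fold higher and 0.59% more than 2-fold lower. The median log2 ratio of CMS over C was 0.06 over the 6 genes and -0.03 over all genes, and -0.11 and -0.20 when the arrays were not scaled. Because probes bind with different strength, the signals below compare the pools for 1 probe and do not rank the genes.

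**Figure D1:**
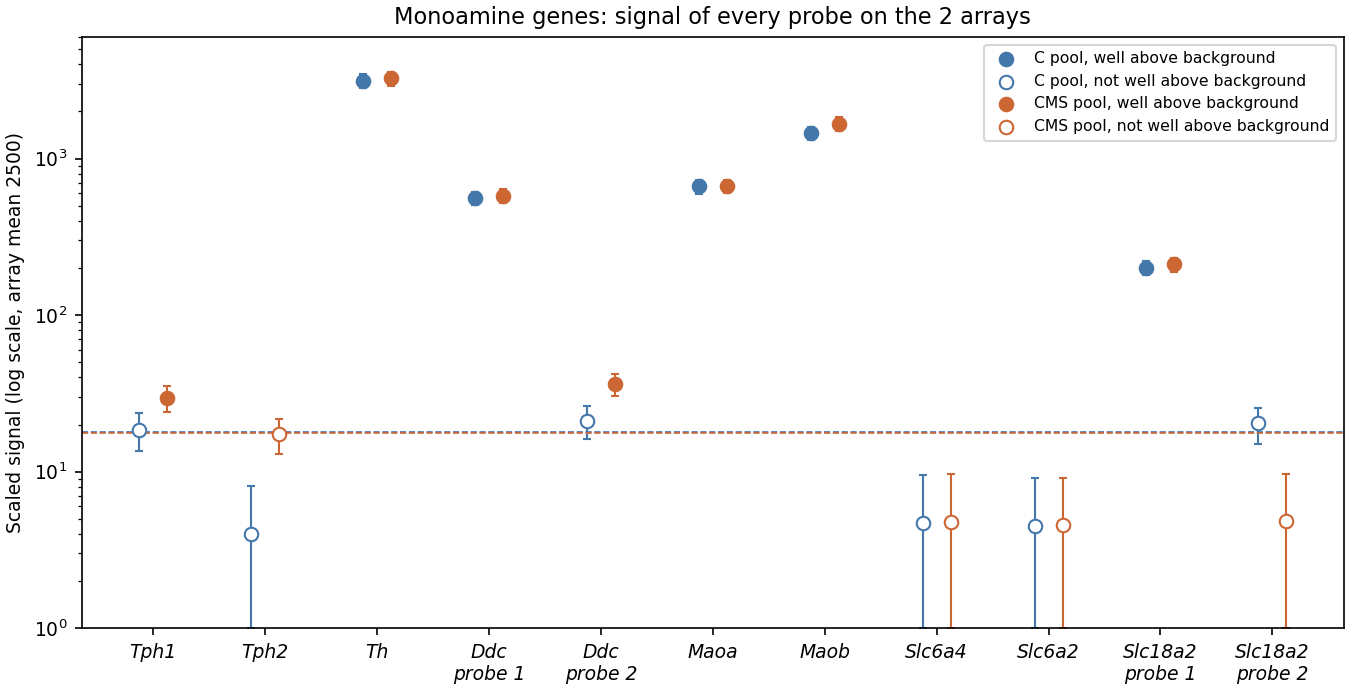
Scaled signal (log axis, array mean 2500) of each of the 11 probes in C (blue) and the CMS pool (orange), 1 array each. Whiskers are the software's error of the spot and are cut at 1, filled symbols are well above background, and the dashed lines mark the lowest signal well above background on each array (17.8 and 17.6). Th, Maob, Maoa and the first probes of Ddc and Slc18a2 lie far above these lines with both pools side by side, and the other probes lie near or below them.

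Of the synthesis enzymes, Th and the brighter of 2 Ddc probes gave clear signals that differed between the pools by less than their error, whereas the dimmer Ddc probe and the 2 tryptophan hydroxylases lay at the edge of detection. For Th (NM_009377), which catalyzes the rate-limiting step of dopamine and noradrenaline synthesis, the signal was 3133 ± 313 in C and 3250 ± 325 in CMS. The log2 ratio of Th was 0.05, with a 95% interval from the software's error of -0.35 to 0.45, and without scaling of the arrays it was -0.12. The difference was therefore smaller than the error of a single spot.

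For Ddc, which decarboxylates the products of both hydroxylases, 2 probes with the accessions of 2 RefSeq transcripts were present. The brighter Ddc probe (NM_001190448) gave 559 ± 56.1 in C and 579 ± 58.1 in CMS, a log2 ratio of 0.05 (95% interval -0.35 to 0.45). This ratio turned to -0.12 without scaling and to -0.04 with another background correction (normexp) followed by quantile normalization. The dimmer Ddc probe (NM_016672) gave 21.2 ± 4.94 in C, where it was not well above background, and 36.1 ± 5.75 in CMS, where it was. The measured signal of this probe alone was 1.71-fold higher in CMS, against 1.03-fold for the brighter one. Its log2 ratio was 0.77 with a combined software error of 0.408, against 0.05 with an error of 0.205 for the brighter probe. The spot of the dimmer probe exceeded its local background by 24 intensity units in C and by 41 in CMS. The probes of Ddc thus gave ratios of different size, and whether they disagreed beyond the software's errors was not tested. The mean of both gave a log2 ratio of 0.41.

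Tph1 (NM_009414), the hydroxylase of gut and pineal serotonin, had a signal of 18.6 ± 5.08 in C, not well above background, and of 29.6 ± 5.46 in CMS, well above background. The measured signal of Tph1 was 1.59-fold higher in CMS, a log2 ratio of 0.67, short of 2-fold. The combined software error of this log2 ratio was 0.476. Before the software's background steps the Tph1 spots were alike, with a median intensity of 67 in C and 66 in CMS and a local background of 43 in both. With normexp correction of these spot medians and quantile normalization the log2 ratio of Tph1 was -0.05. In size this is below the SD of 0.13 between spots of 1 probe. The normexp setting adds an offset of 50 to each spot, whereas Tph1 exceeded its local background by 24 units in C and 23 in CMS. With quantile normalization alone the log2 ratio of Tph1 was 0.63.

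Tph2 (NM_173391), the hydroxylase of serotonergic neurons, was not well above background in either pool and was given no ratio. Its signal was 4.01 in C, where the software did not find it different from background, and 17.4 ± 4.38 in CMS, just below the lowest signal well above background on that array, 17.6. The spot exceeded its local background by 3.5 intensity units in C and by 24 in CMS. Taken at face value these signals are 4.33-fold apart, but the lower one is the value that the software puts in place of a signal it cannot tell from background. Such replaced values equalled their own error within 5% for all 10792 such spots of the C array and all 10674 of the CMS array, so that they are no measured level.

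Of the breakdown enzymes, both monoamine oxidases were well above background in both pools and differed little. Maoa (NM_173740), which prefers serotonin and noradrenaline, gave 664 ± 66.6 in C and 667 ± 66.9 in CMS. Its log2 ratio was 0.01 (95% interval -0.39 to 0.41), and it was -0.17 without scaling, -0.02 with the arrays scaled to their medians and -0.01 with normexp. Maob (NM_172778), the form of astrocytes and of serotonergic neurons, gave 1450 ± 145 in C and 1668 ± 167 in CMS. The log2 ratio of Maob was 0.20 (95% interval -0.20 to 0.60), the largest among the 5 of the 9 genes detected in both pools. It was above 0 under every scaling tried, from 0.03 without scaling to 0.23 with normexp. Of the 25433 gene names well above background on both arrays, 77.1% lay within the same distance of 0, so that a ratio of this size was common. The 7 astrocyte markers were all within 2-fold (brightest S100b), with a median log2 ratio of 0.03.

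Of the transporters, Slc18a2 was detected by 1 of its 2 probes and the plasma membrane transporters of serotonin and noradrenaline were not detected. The brighter probe of Slc18a2 (NM_172523), which fills synaptic vesicles in all monoamine neurons, gave 201 ± 20.5 in C and 211 ± 21.6 in CMS. The log2 ratio of this Slc18a2 probe was 0.07 (95% interval -0.34 to 0.48), and -0.10 without scaling. The second probe of Slc18a2 gave 20.3 ± 5.29 in C and 4.83 in CMS and was well above background in neither. Its value in CMS is a replaced one and no measured level.

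Slc6a4 (NM_010484), the serotonin transporter, gave 4.72 in C and 4.79 in CMS. Slc6a2 (NM_009209), the noradrenaline transporter, gave 4.53 and 4.56. All 4 of these are replaced values. On the same arrays 308 negative control spots had median signals of 4.29 in C and 4.20 in CMS, with 95th percentiles of 4.91 and 4.92. Only 14 of these control spots in C and 15 in CMS had a signal that the software told from background. Their medians are thus set in the same way as the values of Slc6a4 and Slc6a2, and the likeness adds no separate support. A difference between the pools was not detectable for either gene.

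**Figure D2:**
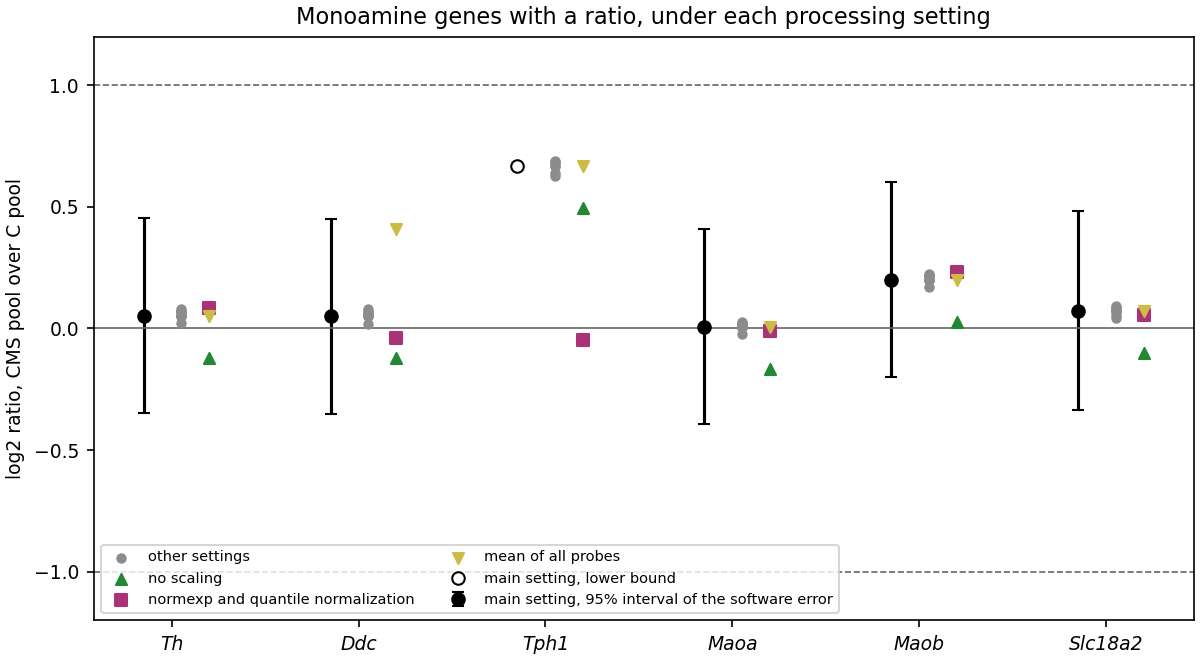
Log2 ratio of CMS over C for the 6 genes with a ratio. Black circles with bars are the values reported with their 95% intervals from the software's error, and colored symbols are other ways of processing. The open circle, labelled a lower bound, is Tph1, detected in CMS only, whose ratio is the measured one. The dashed lines mark 2-fold. No setting shown reaches 2-fold, Tph1 reaches -0.05 with normexp, and 5 of the genes lie near 0 in most settings.

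The other genes of the pathway were described from lists chosen by role. The largest ratio among them was in the supply of tetrahydrobiopterin, the cofactor that all tryptophan and tyrosine hydroxylases need. All 8 genes of its synthesis and recycling were well above background in both pools, and 1 was more than 2-fold higher, with a list median of 0.11. That gene was Gchfr (NM_177157), whose product controls GTP cyclohydrolase by feedback, with 126 ± 13.1 in C and 379 ± 38.1 in CMS. The log2 ratio of Gchfr was 1.59 (95% interval 1.18 to 2.0), and it stayed between 1.29 and 1.61 over 12 settings of the processing. Gch1 (NM_008102), GTP cyclohydrolase itself, named here after its value was seen, gave 169 ± 17.5 in C and 299 ± 30.3 in CMS, a log2 ratio of 0.83 (95% interval 0.42 to 1.23) that ranged from 0.56 to 0.85. Its second, dimmer probe gave 19.2 and 23.6, a log2 ratio of 0.30. Liver transcribes both genes, and 11 of 12 hepatocyte markers were also more than 2-fold higher in CMS, with a median log2 ratio of 3.13. The part of liver transcripts in the ratios of Gchfr and Gch1 was not tested. The brightest genes of the list were Qdpr, which regenerates the cofactor, with 14170 in C and 13500 in CMS, and Pcbd2, a dehydratase of the same cycle, with 3450 and 3946.

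Among 4 further enzymes that form amines, 0 passed 2-fold, and the median log2 ratio was -0.05. Aanat, which acetylates serotonin on the way to melatonin, gave 1222 in C and 1138 in CMS, and Dbh, which turns dopamine into noradrenaline, gave 96.9 and 96.6. Among 8 other breakdown enzymes, all well above background in both pools, 0 passed 2-fold and the median was 0.0023. The brighter probe of the amine oxidase Aoc2 gave 134600 and 129900, a log2 ratio of -0.05. The other Aoc2 probe gave 99.98 and 66.2, a log2 ratio of -0.59 (95% interval -1.04 to -0.15). The 2 probes thus disagreed in signal and in ratio, and what the brighter one binds was not tested. The aldose reductase Akr1b3, which reduces the aldehydes that amine oxidation leaves, gave 4832 and 4569.

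Of 5 other amine transporters, 3 were well above background in both pools, 0 passed 2-fold, and the median log2 ratio was -0.23. The dopamine transporter Slc6a3 (NM_010020) gave 123 in C and 117 in CMS, a log2 ratio of -0.07. The low-affinity brain transporter Slc29a4 gave 1089 and 926, a log2 ratio of -0.23. Slc18a1 and Slc22a3 were at background in both pools.

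Of 11 transcription factors that specify monoamine neurons, 5 were well above background in both pools and 6 in neither, and 0 of the 5 passed 2-fold. The 5 ratios lay between -0.99 and -0.07 (log2), and their median, -0.34, was -0.51 without scaling and -0.21 with normexp. With the filter on dim probes removed or loosened, where some genes at background also count, the list median was -0.06 and -0.07. Lmx1a, Foxa2 and En1, factors of midbrain dopamine neurons, Gata3 of serotonergic neurons, and Phox2a and Hand2 of noradrenergic neurons were those at background. Detected were Nr4a2, Lmx1b, Gata2 (103 in C and 90.55 in CMS), Fev and Pitx3. Fev, of serotonergic neurons, gave 63.6 and 47.5, and Pitx3, of midbrain dopamine neurons, gave 135 and 107. The 95% intervals of the log2 ratios of Fev (-0.93 to 0.09), Pitx3 (-0.76 to 0.08) and Gata2 (-0.62 to 0.25) included both directions. Nr4a2 (NM_013613), required for dopamine neurons and also transcribed in cortex, gave 1512 ± 151 in C and 760 ± 76.2 in CMS. The log2 ratio of Nr4a2 was -0.99 (95% interval -1.39 to -0.59), just short of 2-fold, and it was past 2-fold with -1.02 when the arrays were scaled to their medians and -1.17 without scaling. Its second probe gave 307 and 176, a log2 ratio of -0.80. Lmx1b gave 273 and 260 on its brighter probe, a log2 ratio of -0.07, and 116 and 178 on the other, a log2 ratio of 0.62, so that its 2 probes pointed in different directions.

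**Figure D3:**
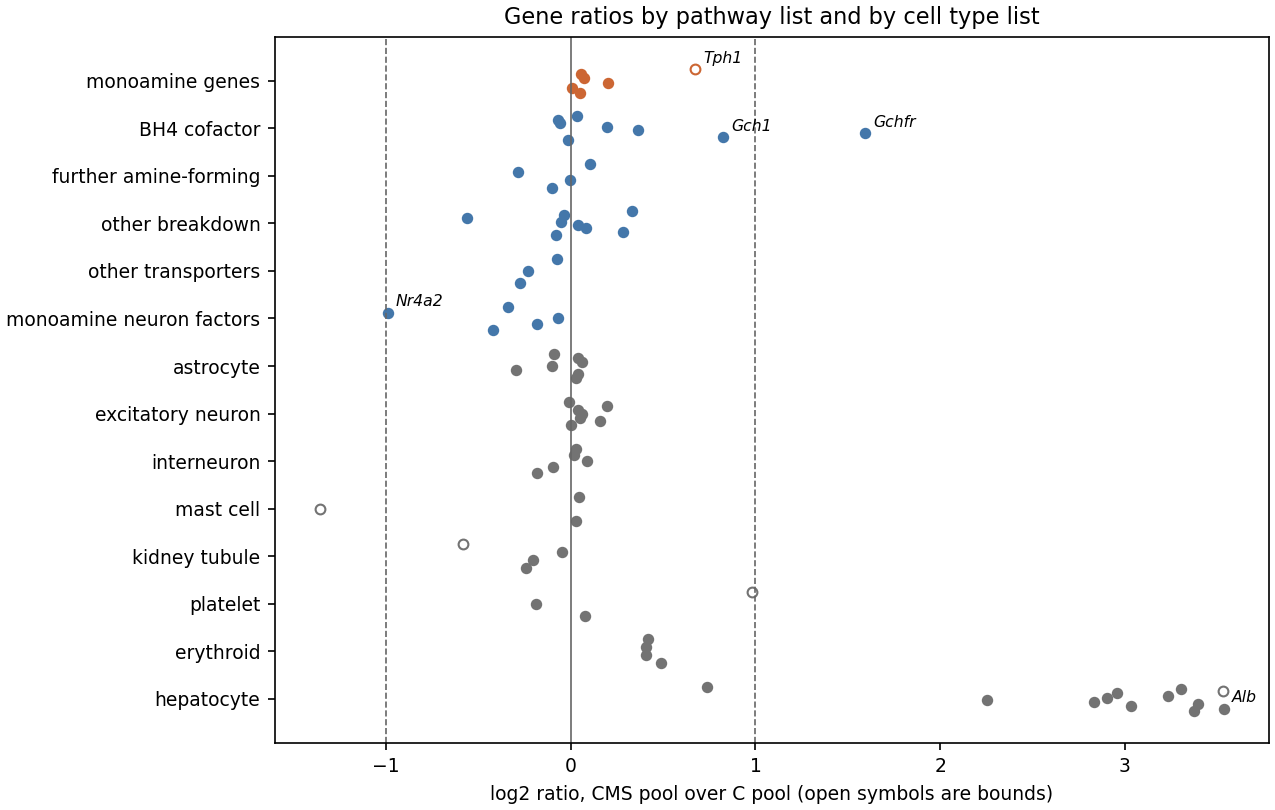
Log2 ratio of CMS over C for each gene with a ratio, by list, with the 6 of the 9 monoamine genes that have one on top (orange), pathway lists (blue) and cell type lists (grey). Each point is 1 gene, open symbols, labelled bounds, are genes detected in 1 pool only, and dashed lines mark 2-fold. The monoamine genes lie within 2-fold, Gchfr lies beyond it, and the hepatocyte markers lie far to the right.

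The labelled tissue was checked against marker lists, and liver transcripts differed between the pools. The 7 cortical excitatory neuron markers were all well above background and within 2-fold, with a median log2 ratio of 0.05 (brightest Tbr1), and the medians were 0.02 for interneurons (Sst), 0.06 for microglia (Csf1r), 0.02 for endothelium (Kdr), -0.15 for oligodendrocytes (Mbp), -0.17 for striatum (Ppp1r1b) and -0.15 for thalamus (Slc17a6). The summed signal of the 12 hepatocyte markers was 6085 in C and 54664 in CMS, 11 of the 12 were also detected in C, and Alb gave 1509 and 17490. Liver also transcribes Maoa, Maob and Ddc, and the part of liver transcripts in their ratios was not tested.

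Cells outside the nervous system that hold or make serotonin were looked at beside Tph1 and Slc6a4. Of 7 mast cell markers, Cpa3, Cma1, Fcer1a and Ms4a2 were at background in both pools, and Kit, the brightest, had a log2 ratio of 0.03. The brighter of 2 Tpsb2 probes was well above background in both pools. It gave 238 in C and 245.5 in CMS, a log2 ratio of 0.04. Among the mast cell markers with a ratio, only Tpsb2 had a second probe, whose own values are not given here. When probes were averaged within each gene, the median log2 ratio of the list moved from 0.03 to -0.58. The ratio of Tpsb2 therefore depended on the probe. Mcpt4 gave 45.1 in C and was not well above background in CMS, at least 2.56-fold lower there. Of 4 platelet markers 3 had a ratio, with -0.19 (log2) for Pf4, the brightest, and 0.08 for Gp9. Ppbp, which was not well above background in C, had a signal 1.97-fold higher in CMS. The median log2 ratio of the 3 was 0.08, and -0.05 over those detected in both pools. The medians were 0.41 for erythroid cells (Hba-a2), 0.11 for choroid plexus (Aqp1) and -0.22 for kidney proximal tubule (Slc22a6). The part of these cells in the signals of Tph1 and Slc6a4 was not tested.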

How the data were processed

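PFC RNA of each group was hybridized as 1 pool to 1 array, and both arrays lay on 1 slide. The authors used Feature Extraction 10.10.1.1 and deposited, for each spot, a processed signal intensity (background-subtracted, spatially detrended, linear, not scaled between arrays), its error and flags. The authors' deposited table holds the same intensities multiplied by 1.80 for C and by 2.05 for CMS.

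Control and outlier spots were left out and the probes of each array were brought to a plain mean of 2500. The methods give this average without its rule, and the authors' table, tried as an alternative, has other factors. Where a probe was detected in 1 pool only, its signal in the other was compared with the lowest detected signal of that array (17.8 for C, 17.6 for CMS). A signal below this was raised to it, and the ratio is then a bound. A signal above it, as for Tph1, the dimmer Ddc probe and Ppbp, was kept, and the ratio is the measured one. Probes detected in neither pool received no ratio. The brightest probe represented a gene. Called genes have a ratio above 2 or below 0.5. The 95% intervals are 1.96 times the combined software error on the log2 scale and cover error within the arrays only, and the number of arrays limits the precision. Spots of 1 probe differed by an SD of 0.13 (log2, 342 probes), the limit beyond which a ratio counted as moved.

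Accessions, cut at the version, were matched to RefSeq gene symbols (GRCm38.p6), which gave a symbol to 30740 of 59305 spots. Asmt, Rnls and Hbb-b1 were not matched, and some genes of the lists are not reported here. Named genes are the 9 genes, the pathway genes past 2-fold and the 2 brightest of each pathway list, and the brightest marker of each cell list, with exceptions stated. The transcription factor and mast cell lists are named in full. The genes, lists and settings were chosen with earlier results of these data known. Calling was run on simulated arrays of CMS over C, where of 27097 genes with a ratio all 200 (bright) genes changed by 4-fold, and 0 others, were called. The simulated noise was below the software's error and the detection flags were those of the data. The run therefore checks the steps of calling and does not measure false calls on the real arrays. Alternatives were other scalings, none, quantile normalization, normexp (offset 50, on spot medians) with quantile normalization, the deposited table and other treatments of dim probes, outliers and multiple probes. The tools were R 4.3.3 with limma 3.58.1 and Python 3.11.15 with pandas 2.3.3, numpy 2.4.6, scipy 1.17.1 and matplotlib 3.10.9. The other brain regions, behavior and protein data were not analysed here.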

Additional observations from a re-analysis of the deposited data

How the results depend on the processing

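No paired analysis was possible because each group had 1 array, and no array could be left out. None of the 6 genes with a ratio passed 2-fold under any setting. Tph2, Slc6a4 and Slc6a2 had no ratio, and so could not pass, unless the filter on dim probes was removed or loosened. Of 77 log2 ratios of the 6 genes with a ratio under other settings, 69 stayed within the spread between spots and 8 moved. Many of the 69 could not move. The settings for outlier spots, dim probes and multiple probes repeated the reported ratio wherever they gave one, except for Ddc with the mean of its probes. Of 32 counts 30 stayed and 2 moved. In the filtered settings Tph2, Slc6a4 and Slc6a2 could not add to the counts of genes past 2-fold. Without scaling the log2 ratios were 0.50 for Tph1, -0.12 for Th, -0.12 for Ddc, -0.17 for Maoa, 0.028 for Maob and -0.10 for Slc18a2. Leaving out the scaling shifts every log2 ratio by the same amount, and the median of all genes went from -0.03 to -0.20. Tph1 was -0.049 with normexp and quantile normalization, and Ddc 0.41 with the mean of its probes. In 2 settings chosen after seeing the data, with no filter and with any positive and significant signal accepted, 1 gene was higher, namely Tph2 at 2.11, whose signal in C is a replaced value.

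Genes called higher, 539 in all, were 265 with normexp, 294 among probes detected in both pools, 1493 with no filter and 1492 with positive and significant signals. Those lower, 160, were 256 without scaling, 38 with normexp, 309 with no bound, 44 among probes detected in both pools, and 1069 and 1068 in the last 2 settings. The share of calls that were higher, 77.1%, was 62.9% without scaling, 87.5% with normexp and 58.3% in the last 2 settings. Why these counts differed between settings was not tested. Signal over background limits Tph1, Tph2, Slc6a4, Slc6a2 and the second probes of Ddc and Slc18a2.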
